A study of Mus musculus with 4 samples.

Results

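Interferon-response T cells were taken here as the CD4 T cells that carried transcripts of several interferon-stimulated genes at once. A cell belonged to the class when at least 3 of 8 such genes (Ifit1, Ifit3, Isg15, Rsad2, Usp18, Mx1, Cmpk2 and Rtp4) had at least 1 UMI, a unique molecular identifier that marks 1 captured RNA molecule. Of 22534 cells kept from 22904 barcodes, 1344 met the rule. They were compared with 17860 cells that held at most 1 of the 8 genes, and the 3330 cells with exactly 2 were left out of that comparison.

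The cells came from the lamina propria, the connective tissue under the epithelium, of the small intestine of wild-type C57Bl/6 mice. Living T cells (CD45+, CD3+, CD4+ and 7AAD-) had been sorted by flow cytometry after removal of Peyer's patches, treatment with EDTA, digestion with collagenase D and DNaseI, and a Percoll gradient. Their RNA was counted with the 10x Genomics 5′ single-cell chemistry in 4 libraries of 1 group, with no treatment, genotype or time point to compare. The design names 4 mice, but the labels do not tie each library to 1 mouse. The p-values therefore measure how the difference between classes within a library varies over the libraries. Both classes came from the same libraries, and within each library members were compared with the other cells. The libraries held 23918884 to 28783972 UMIs, with a median of 3685.5 to 4220 UMIs per cell. Any pair of libraries shared 34 to 55 cell barcodes, and 0 of these had equal UMI totals.

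Interferons are secreted proteins that warn cells of infection. Type I interferons bind the receptor pair IFNAR1 and IFNAR2, whose kinases JAK1 and TYK2 activate STAT factors, STAT2 among them. Together with IRF9 these bind the interferon-stimulated response element in the promoters of antiviral genes, whereas interferon gamma, a product of T cells themselves, acts through its own receptor with JAK1 and JAK2. The products degrade or block viral RNA, tag proteins with ISG15, raise antigen presentation and, in time, damp the pathway again.

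Some promoters of the genes behind the class hold letters that match the element such factors read. The 300 bases printed for each gene run from 250 bases before to 50 after its start, on the gene's own strand, from RefSeq on build GRCm38.p6, and stand otherwise in lower case. Capitals mark matches to GAAANNGAA on either strand, the core of an interferon-stimulated response element. Of the 8 genes of the rule, Ifit1, Ifit3, Isg15, Rsad2 and Cmpk2 had an entry in the promoter table. The first 4 held matches, and Cmpk2 is shown because it held none. Outside the rule, Bst2 and Oasl2 are shown as genes that rose in the class, one with matches and one without, and Ifngr1 as one that fell.
Isg15 (chr4:156200769-156201068, minus strand): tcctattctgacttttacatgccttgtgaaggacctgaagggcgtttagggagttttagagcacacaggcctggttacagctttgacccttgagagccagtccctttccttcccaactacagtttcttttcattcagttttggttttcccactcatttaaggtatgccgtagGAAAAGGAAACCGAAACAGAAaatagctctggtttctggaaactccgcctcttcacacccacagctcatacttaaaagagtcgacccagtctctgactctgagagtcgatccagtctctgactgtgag
Ifit1 (chr19:34640639-34640938, plus strand): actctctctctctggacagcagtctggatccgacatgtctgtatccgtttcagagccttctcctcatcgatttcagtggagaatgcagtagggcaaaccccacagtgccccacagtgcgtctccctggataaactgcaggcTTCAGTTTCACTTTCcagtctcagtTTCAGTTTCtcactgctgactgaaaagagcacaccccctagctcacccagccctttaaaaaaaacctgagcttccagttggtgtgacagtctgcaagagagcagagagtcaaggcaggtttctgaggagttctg
Ifit3 (chr19:34583279-34583578, plus strand): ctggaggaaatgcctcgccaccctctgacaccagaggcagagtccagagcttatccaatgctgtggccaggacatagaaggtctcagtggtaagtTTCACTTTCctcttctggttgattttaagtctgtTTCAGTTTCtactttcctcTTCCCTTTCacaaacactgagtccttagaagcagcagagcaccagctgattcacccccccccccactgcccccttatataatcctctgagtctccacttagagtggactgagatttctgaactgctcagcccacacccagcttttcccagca
Rsad2 (chr12:26456403-26456702, minus strand): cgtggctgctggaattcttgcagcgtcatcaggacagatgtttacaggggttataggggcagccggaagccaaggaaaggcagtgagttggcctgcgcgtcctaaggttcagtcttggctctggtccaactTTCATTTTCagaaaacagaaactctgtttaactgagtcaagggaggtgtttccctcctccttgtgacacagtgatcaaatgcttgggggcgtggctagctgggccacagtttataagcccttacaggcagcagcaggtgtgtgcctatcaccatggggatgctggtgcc
Cmpk2 (chr12:26468965-26469264, plus strand): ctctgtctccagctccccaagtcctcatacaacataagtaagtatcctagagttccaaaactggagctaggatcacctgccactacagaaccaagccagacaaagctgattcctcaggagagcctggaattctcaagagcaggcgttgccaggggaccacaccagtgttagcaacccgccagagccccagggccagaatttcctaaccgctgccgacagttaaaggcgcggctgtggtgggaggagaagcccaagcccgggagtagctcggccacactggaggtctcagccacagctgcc
Bst2 (chr8:71537423-71537722, minus strand): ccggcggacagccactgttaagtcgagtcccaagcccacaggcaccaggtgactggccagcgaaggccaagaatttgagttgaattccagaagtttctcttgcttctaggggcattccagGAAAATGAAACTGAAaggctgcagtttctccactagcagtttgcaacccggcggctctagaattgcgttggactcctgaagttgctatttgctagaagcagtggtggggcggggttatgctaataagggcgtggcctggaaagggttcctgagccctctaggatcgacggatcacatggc
Oasl2 (chr5:114896684-114896983, plus strand): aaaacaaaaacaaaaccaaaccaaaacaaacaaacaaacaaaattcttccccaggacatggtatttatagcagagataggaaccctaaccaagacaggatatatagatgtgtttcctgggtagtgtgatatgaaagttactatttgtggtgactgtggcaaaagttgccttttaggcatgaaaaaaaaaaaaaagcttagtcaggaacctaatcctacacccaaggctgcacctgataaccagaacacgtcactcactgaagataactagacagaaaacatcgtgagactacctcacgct
Ifngr1 (chr10:19591699-19591998, plus strand): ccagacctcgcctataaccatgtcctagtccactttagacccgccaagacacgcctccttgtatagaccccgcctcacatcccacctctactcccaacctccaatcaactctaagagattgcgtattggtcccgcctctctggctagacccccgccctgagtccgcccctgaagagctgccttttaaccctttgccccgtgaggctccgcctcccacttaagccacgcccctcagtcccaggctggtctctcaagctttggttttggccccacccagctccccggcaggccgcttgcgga

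In Isg15 the 3 matches began 78, 72 and 66 bases before the start and ran into each other. Ifit1 held matches 109, 103 and 84 bases before its start, and Ifit3 held them at 155, 121 and 102. Rsad2 had 1 match, 119 bases before the start. A match describes these letters and shows no binding, and its absence from Cmpk2, Oasl2 and Ifngr1 says only that the letters were not in this window. Irf7 and Xaf1, which also rose, held 0 matches.

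The class made up 261 of 5663 cells in library 1 (4.61%), 288 of 5910 in library 2 (4.87%), 336 of 5577 in library 3 (6.02%) and 459 of 5384 in library 4 (8.53%). The mean was 6.01% ± 1.79 (SD, n = 4 libraries). Library 4 was the highest, and its exact Clopper-Pearson interval of 7.79% to 9.30% (95%) did not meet that of any other library. Such intervals cover counting error only. The rule is not free of depth, since a deeper cell can show more genes. Members had median depths of 4943, 4428, 4196 and 5026 UMIs in libraries 1 to 4, against 4119, 3579, 3596.5 and 3892.5 UMIs in the comparison cells. After a random draw of 2000 UMIs from every cell that had as many, hereafter thinning, the share was 1.74%, 1.86%, 3.15% and 3.51% in libraries 1 to 4 (mean 2.56% ± 0.898). Libraries 3 and 4 remained above libraries 1 and 2. The intervals of library 4 (3.03% to 4.05%) and library 3 (2.70% to 3.65%) then overlapped.

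The class shaded into the rest of the cells without a gap. The 8554 cells with none of the 8 genes and the 9306 with 1 were followed by 3330 with 2, 1062 with 3 or 4 and 282 with 5 to 8. A cell with exactly 2 genes, just outside the rule, held a median of 3 UMIs of the 8 genes together. The cells with 3 or 4 genes held a median of 7, and those with 5 to 8 held 21. Of the cells with exactly 3 genes, 390 (49.7%) held the combination Ifit1, Isg15 and Rtp4. Requiring at least 4 genes left 2.51% ± 1.15 of cells, and requiring at least 5 left 1.26% ± 0.578.

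**Figure D1:**
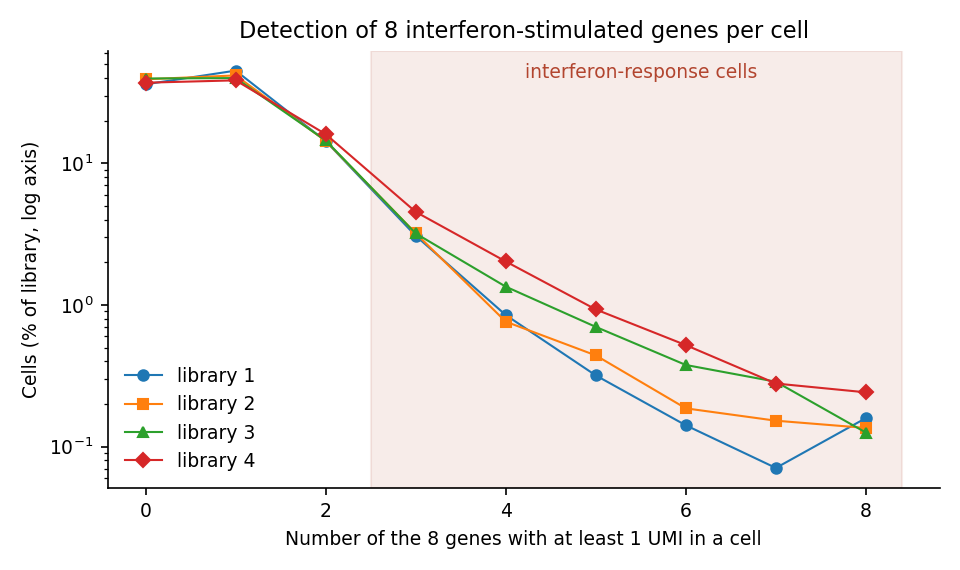
Share of each library's cells (percent, log axis) by the number of the 8 genes with at least 1 UMI, with 1 line per library and the class shaded. From 1 gene up to 6 the share falls with each further gene, and libraries 3 and 4 lie above libraries 1 and 2 from 4 to 7 genes.

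The genes of the rule differ in what they do, and their values are given as a description, since the rule chose the cells by them. Levels are in CPM, the UMIs of a gene in a class, summed within a library and scaled to a total of 1000000. In a sum, more positive cells and more RNA per cell cannot be told apart. Isg15, a ubiquitin-like protein that is joined to other proteins, stood at 849.6, 928, 1093 and 791 CPM in the members of libraries 1 to 4, against 213, 197, 183 and 151 CPM in the comparison cells. It was found in 97.2% to 99.6% of members and in 33.2% to 43.8% of comparison cells, so a basal Isg15 signal was common outside the class. Rtp4, a membrane protein induced by interferon, stood at 364 ± 50.7 CPM against 35.3 ± 7.99 CPM. It had a UMI in 90.6% to 92.4% of members.

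The other genes of the rule were low in the comparison cells, a level that the rule itself sets. Ifit1, which binds foreign RNA caps, reached 288 ± 31.6 CPM in members against 4.48 ± 0.8289 CPM. In the cells with exactly 2 genes, which lie outside the class as well, Ifit1 stood at 36.1 ± 3.65 CPM. Its relative Ifit3 stood at 102 ± 34.4 CPM in members, lowest in library 1 (65.3 CPM) and highest in library 3 (147 CPM), against 0.560 ± 0.419 CPM. Rsad2 (viperin), which makes a chain-terminating nucleotide, stood at 86.2 ± 8.75 against 0.930 ± 0.232 CPM. Cmpk2, its neighbour on chromosome 12 and a mitochondrial nucleotide kinase, stood at 69.5 ± 7.19 against 1.29 ± 0.220 CPM. The GTPase gene Mx1 stood at 51.4 ± 6.43 against 1.17 ± 0.428 CPM. Usp18, the protease that removes ISG15 and silences IFNAR2, stood at 51.2 ± 10.7 against 0.621 ± 0.124 CPM.

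Outside the rule, 11682 genes were tested with edgeR's quasi-likelihood test on the class sums, with library as a block and Benjamini-Hochberg adjustment at 0.05. Of these, 348 were higher in the class (2.98%) and 182 were lower (1.56%), so that 4.54% were called in either direction. The members' sums lay above all comparison sums in 4.01% of the genes tested and below them all in 3.12%, which is the background for statements below on classes that did not overlap. The median log2 fold change over all genes tested was -0.01. The 11 lists of interferon-pathway genes used below held 112 of the higher genes among 160 tested members, and 1 of the lower genes. Hence 236 higher genes lay outside those lists, 2.05% of the 11522 other genes tested. With each cell thinned to 2000 UMIs before the rule was applied, 235 genes were higher, of which 213 were among the 348. Of the 100 genes that were lower after thinning, 37 were among the 182. The number of lower genes was 117 without library 3 and 88 with DESeq2. Without library as a block, 199 genes were higher and 7 were lower.

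Transcripts of type I interferons were at or near 0 in both classes. Of 21 interferon ligand genes in the list, 19, among them Ifnb1 and the listed Ifna genes, had no UMI in either class. That allows up to 0.362 CPM in the members and 0.0385 CPM in the comparison cells, taking 3 UMIs over all 4 libraries as the limit. Ifnz (limitin), a type I gene named after its values were seen, had 1 UMI in members (0.588 CPM in library 1) and 0.0504 to 0.110 CPM in the comparison cells of the 4 libraries. Ifng, the gene of interferon gamma, was the 1 ligand gene tested. It stood at 297, 234, 277 and 208 CPM in members and at 261, 297, 316 and 257 CPM in comparison cells, and these ranges overlapped. The log2 difference of -0.16 ± 0.07 (SE) had an adjusted p of 0.235 with edgeR, but was -0.37 (adjusted p = 0.00797) after thinning and -0.43 (adjusted p = 0.000117) among cells of 2500 to 6000 UMIs. Ifng was also called lower without library 1 (-0.27), within a T cell gate (-0.22) and with members of at least 4 genes (-0.34).

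None of the receptor and kinase genes passed as higher. Of 8 tested, 0 were higher and 1 was lower, where 2.98% of all genes were higher. Ifnar1, a chain of the type I receptor, stood at 87.7, 93.9, 82.0 and 79.1 CPM in members and at 99.3, 93.4, 87.8 and 77.9 CPM in comparison cells. The other chain, Ifnar2, stood at 91.2 ± 7.41 against 82.8 ± 2.90 CPM (log2 difference 0.13 ± 0.06, edgeR adjusted p = 0.354), and both chains overlapped between the classes. The kinase genes Jak1 (0.05 ± 0.04), Jak2 (0.12 ± 0.07) and Tyk2 (0.03 ± 0.10) had log2 differences within 0.13 of 0. Ifngr1, the ligand-binding chain of the interferon gamma receptor, stood at 612, 554, 538 and 538 CPM in members against 683, 650.4, 676 and 590.2 CPM. It was lower within each library, although the ranges overlapped, by a log2 difference of -0.21 ± 0.03 (edgeR adjusted p = 0.00104). Its partner chain Ifngr2 stood at 5.71 ± 0.517 against 9.17 ± 2.54 CPM and did not pass (adjusted p = 0.0898). Ifnlr1, the receptor chain for type III interferons, had no UMI in either class.

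Among the signal transducers, Stat2 and Irf9, whose products read the response element together, rose. Stat2 (chr10:128270559-128292849, plus strand, GENCODE M21 on mm10, as for the positions of other genes below) stood at 69.4, 58.5, 74.7 and 68.2 CPM in members and at 22.4, 24.9, 26.1 and 22.3 CPM in comparison cells. The classes did not overlap, and the log2 difference was 1.51 ± 0.08 (edgeR adjusted p = 8.82e-10). Irf9, its DNA-binding partner, stood at 109.7 ± 13.0 against 54.0 ± 4.98 CPM, a log2 difference of 1.02 ± 0.05. Stat3, Stat4, Stat5a, Stat5b and Stat6, which serve mainly other cytokines, had log2 differences between -0.12 and 0.03, with none called.

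Irf7 (chr7:141262706-141266481, minus strand), the factor that amplifies type I interferon production, had the largest difference of the interferon regulatory factors described here. It stood at 217, 275, 316 and 236 CPM in members, with library 3 highest, and at 54.9, 69.1, 65.0 and 66.0 CPM in comparison cells. The log2 difference was 2.02 ± 0.07 (edgeR adjusted p = 2.24e-11), and it stayed between 1.93 and 2.59 over 16 alternatives. Irf2 (0.25 ± 0.05), Irf1 (0.24 ± 0.06) and Irf8 (0.57 ± 0.11) were higher by less. The Irf1 call was lost without library 2, 3 or 4 and without recirculating cells, the Irf2 call without library 3, and the Irf8 call without library 4. The Irf8 call was also lost with called doublets removed, among cells of 2500 to 6000 UMIs and with members of at least 4 genes, and after thinning Irf8 stood at -0.05. Irf3, Irf4 and Irf5 did not pass.

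**Figure D2:**
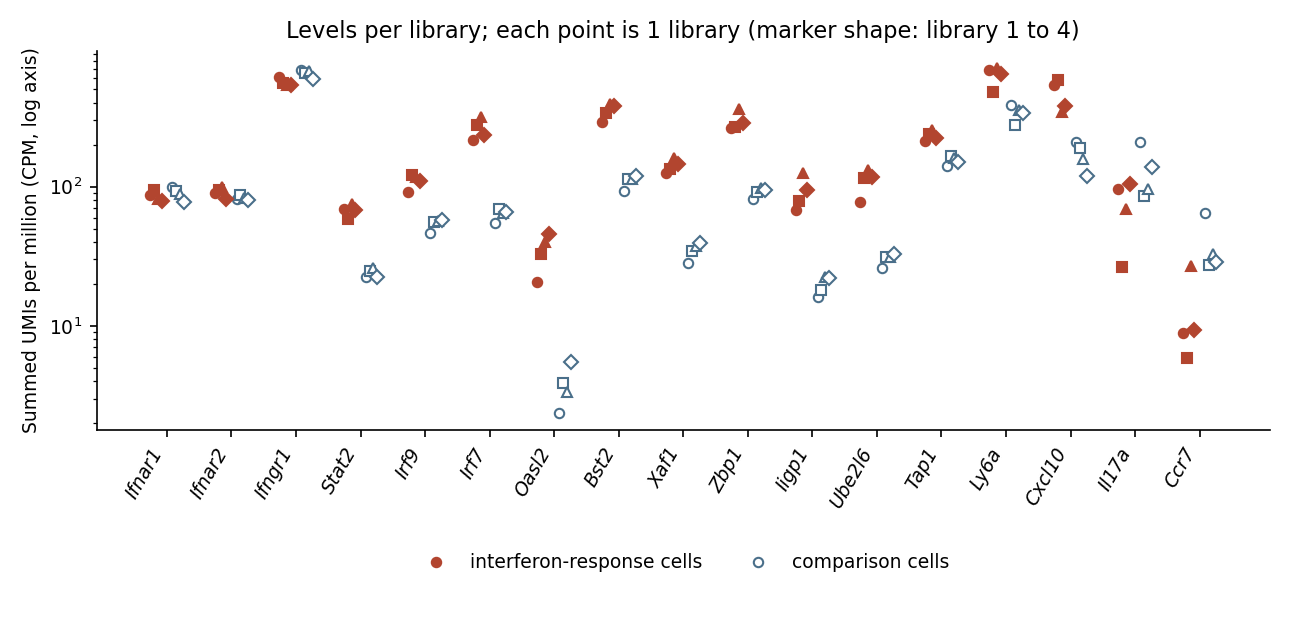
CPM (log axis) of 17 genes in the interferon-response cells (filled) and the comparison cells (open), with 1 point per library and the marker shape naming libraries 1 to 4 (circle, square, triangle, diamond). Stat2, Irf9, Irf7 and Oasl2 separate the classes in every library, Ifnar1 and Ifnar2 overlap, and Il17a and Ccr7 are lower in members of each library.

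Nearly all antiviral effectors rose. Of 38 tested, 36 were higher and 0 were lower, with a median log2 difference of 1.60, and 33 to 36 were higher under the alternatives tried. Oasl2 (chr5:114896936-114912234, plus strand), an oligoadenylate synthetase-like protein, stood at 20.6, 33.1, 40.1 and 45.5 CPM in members and at 2.38, 3.88, 3.35 and 5.48 CPM in comparison cells. Its log2 difference of 3.20 ± 0.15 (edgeR adjusted p = 3.43e-10) was the largest among the genes that met the rule for naming, which asks for at least 20 CPM in a class. Bst2 (tetherin), which holds budding virions at the cell surface, stood at 289, 335, 391 and 376 CPM against 93.4, 113, 114 and 119 CPM, with no overlap (log2 difference 1.66 ± 0.05).

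Ifi27l2a, a relative of Ifi27, stood at 1519, 1875, 2186 and 2107 CPM against 611, 703, 642 and 697 CPM. The lowest member library lay above the highest comparison library.

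Others of the list act on cell death, translation and RNA. Xaf1, a promoter of cell death, stood at 141 ± 15.96 against 34.9 ± 4.85 CPM (2.01 ± 0.05 on the log2 scale). Eif2ak2 (PKR), the RNA-activated kinase that halts translation, stood at 79.1 ± 9.08 against 25.7 ± 1.46 CPM (1.63 ± 0.07). Oas3, which makes the activator of RNase L, stood at 55.7 ± 11.2 against 12.4 ± 0.934 CPM (2.15 ± 0.12), and Ifit2 at 46.9 ± 6.43 against 9.08 ± 1.497 CPM (2.36 ± 0.12). Ifitm3, which blocks virus entry at membranes, stood at 43.5, 23.6, 62.5 and 65.2 CPM in members, lowest in library 2, against 8.92, 13.5, 12.9 and 9.27 CPM (2.16 ± 0.21). Ifi27 (259 ± 18.5 against 264 ± 18.2 CPM) and Ifitm2 (31.5 ± 13.4 against 36.7 ± 7.15 CPM) were the 2 that did not pass. Reads of near-identical copies, such as Ifit3 and Ifit3b, the Oas1 genes, the Trim30 and Phf11 genes and Gbp6 with Gbp10, could be shared or lost in the counting, so their single values are uncertain.

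Most nucleic acid sensors rose, and a few did not pass. Of 19 tested, 13 were higher and 0 lower, with a median of 1.16. Dhx58 (LGP2), a regulator of RNA helicase sensors, stood at 34.1, 52.0, 51.9 and 38.8 CPM against 7.04, 9.53, 9.54 and 7.62 CPM, a log2 difference of 2.38 ± 0.11. Ifih1 (MDA5), the sensor of long double-stranded RNA, stood at 108 ± 25.4 against 38.6 ± 2.57 CPM (1.46 ± 0.09), and Ddx58 (RIG-I) at 156 ± 15.4 against 76.2 ± 7.20 CPM (1.03 ± 0.06). Zbp1, a sensor of Z-form nucleic acid that can start necroptosis, stood at 265, 268, 362 and 288 CPM against 81.7, 92.1, 98.3 and 94.1 CPM (1.68 ± 0.06). By contrast, Mavs, the adaptor of the RNA sensors, stood at 13.2 ± 3.45 against 12.4 ± 1.76 CPM. Tmem173 (STING) stood at 84.7 ± 4.30 against 77.0 ± 3.45 CPM, and Mb21d1 (cGAS) at 7.39 ± 1.69 against 5.77 ± 0.528 CPM. None of these 3 passed.

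The same list holds genes of the Ifi200 cluster on chromosome 1, whose products bind DNA, a grouping made after their values were seen. Of the 9 tested, Aim2 did not pass (74.7 ± 2.66 against 66.3 ± 6.07 CPM) and the other 8 were higher. Ifi214 stood at 39.4, 43.7, 62.5 and 55.9 CPM in members against 6.82, 7.36, 9.43 and 11.2 CPM. Ifi206 stood at 50.6, 60.8, 100.4 and 75.9 CPM against 15.5, 17.6, 19.4 and 23.1 CPM, highest in library 3. Neither overlapped between the classes. Ifi213 (140 ± 38.1 against 35.4 ± 8.56 CPM), Ifi208 (172 ± 39.3 against 48.2 ± 10.2 CPM) and Ifi203 (484 ± 55.8 against 216 ± 24.4 CPM) were higher as well. Reads of these close relatives may be shared, so their single values are uncertain.

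Interferon-inducible GTPases, which attack the vacuoles of intracellular microbes, were higher in 19 of 19 tested members, with a median of 1.16. Iigp1 stood at 67.7, 78.6, 124 and 95.3 CPM in members against 16.1, 18.3, 22.4 and 22.05 CPM (log2 difference 2.20 ± 0.08, edgeR adjusted p = 2.24e-11). Library 3 was highest in members, as it was for Irgm1 (105 ± 17.7 against 32.7 ± 4.51 CPM, 1.67 ± 0.07) and Ifi47 (482 ± 110.0 against 214 ± 43.6 CPM, 1.16 ± 0.06). Gbp2, which is also read out as a target of interferon gamma, stood at 196 ± 28.3 against 115 ± 16.005 CPM (0.77 ± 0.06). Among Schlafen genes, which restrain growth and translation, 4 of 6 tested were higher and 0 lower. Slfn5 stood at 45.9, 64.4, 71.9 and 52.3 CPM against 6.31, 8.97, 7.59 and 10.0 CPM (2.81 ± 0.13), and Slfn8 and Slfn1 had log2 differences of 1.69 ± 0.06 and 1.47 ± 0.07.

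All 4 tested genes of a list drawn up for ISG15 conjugation were higher. Ube2l6, the enzyme that carries ISG15 to its targets, stood at 77.1, 115, 131 and 118 CPM against 26.2, 31.1, 31.2 and 33.0 CPM, a log2 difference of 1.85 ± 0.07. Herc6, the mouse ligase, stood at 77.0 ± 14.8 against 29.5 ± 1.84 CPM (1.39 ± 0.08), and Uba7, the activating enzyme, at 64.4 ± 14.0 against 42.6 ± 2.52 CPM (0.59 ± 0.08). Herc3, also on that list but with no role in ISG15 conjugation claimed here, was higher by 0.47 ± 0.10. Its call was lost without library 3 or 4.

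Antigen presentation moved in many genes by small amounts. Of 20 tested, 17 were higher and 0 lower, with a median of 0.28, and 11 to 18 were higher under the alternatives. The peptide transporter gene Tap1 stood at 211, 237, 254 and 222 CPM against 140.4, 166, 161 and 149.8 CPM (log2 difference 0.58 ± 0.05), with no overlap. The immunoproteasome subunit Psmb8 was higher by 0.32 ± 0.03 and the class I light chain B2m by 0.20 ± 0.02. The classical heavy chains H2-K1 (0.08 ± 0.01, adjusted p = 0.000886) and H2-D1 (0.06 ± 0.01, adjusted p = 0.0381) passed with overlapping ranges. The nonclassical H2-T24 stood apart, at 29.6 ± 5.19 against 9.74 ± 0.193 CPM (1.58 ± 0.13), although reads of the H2-T and H2-Q genes may be shared.

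**Figure D3:**
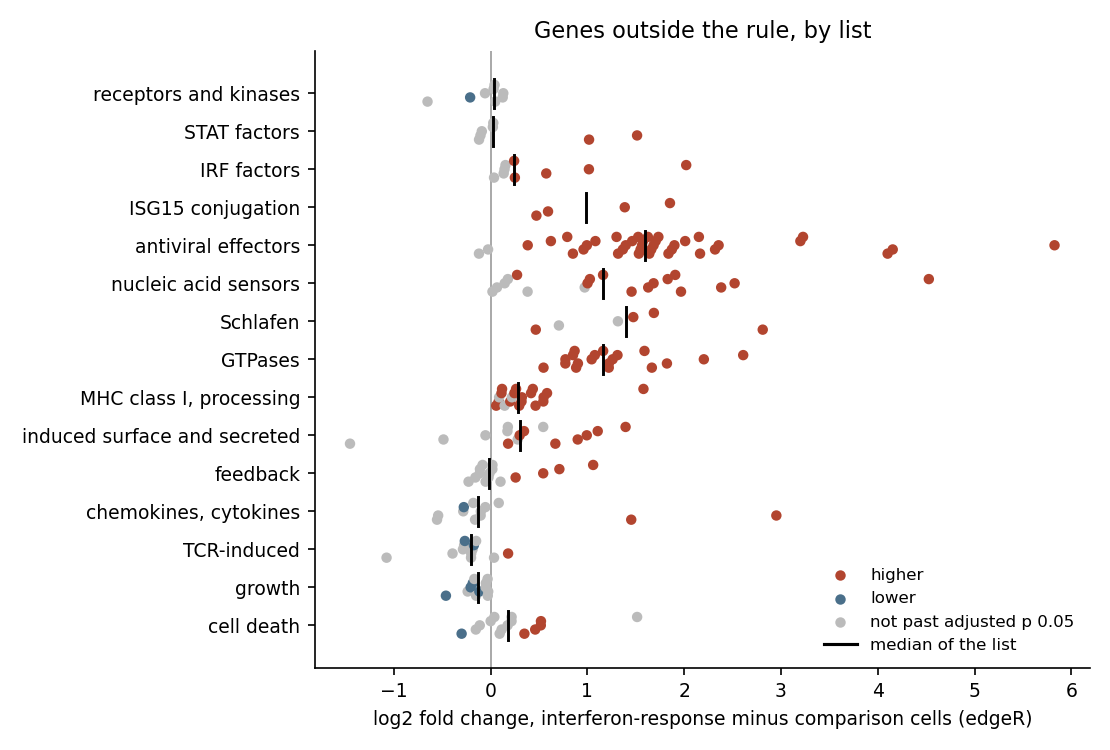
Log2 fold change from edgeR, interferon-response minus comparison cells, of each tested gene outside the rule by list, coloured by call, with the list median as a black bar. Medians lie at 1.60 for antiviral effectors and 1.16 for GTPases and for sensors, against 0.04 for receptors and kinases.

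Surface and secreted products followed in part. Of 15 induced surface and secreted genes tested, 8 were higher and 0 lower. Ly6a (Sca-1), a classic interferon-induced surface protein of mouse lymphocytes, stood at 692, 481, 710.4 and 639.9 CPM against 386, 276, 352 and 335 CPM (0.90 ± 0.04). Ly6e, another gene of the Ly6 family, stood at 2218 ± 166 against 1799 ± 86.6 CPM. Cd274 (PD-L1), a ligand that restrains T cells, stood at 71.2, 101, 94.2 and 66.5 CPM against 41.1, 45.2, 41.7 and 37.2 CPM (0.99 ± 0.07), and the classes did not overlap for Ly6a or Cd274. Tnfsf10 (TRAIL), a death ligand, stood at 62.8 ± 4.72 against 55.7 ± 7.10 CPM and did not pass (adjusted p = 0.172).

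Of 12 chemokine and cytokine genes tested, 2 were higher and 1 lower. Cxcl10, a chemokine that draws CXCR3-bearing T cells, stood at 539, 579.5, 345 and 381 CPM in members against 208, 189, 159 and 118 CPM (log2 difference 1.45 ± 0.07, edgeR adjusted p = 5.62e-10). Members of libraries 1 and 2 were the highest for it. Cxcl9 was found at 6.06 ± 5.17 against 0.750 ± 0.128 CPM, and its call was lost with DESeq2, among cells of 2500 to 6000 UMIs and within the T cell gate. Xcl1 was lower, at 283 ± 44.1 against 342 ± 35.6 CPM (-0.28 ± 0.05), a call lost after thinning and with members of at least 4 genes, and Tnf, Il2, Il10 and Ccl5 did not pass.

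Some negative regulators passed. Of 15 tested, 4 were higher and 0 lower, with a median of -0.01, where 2.98% of all genes tested were higher. Usp18, which silences IFNAR2, is a gene of the rule and was not tested. Adar, which edits double-stranded RNA and so hides it from sensors, stood at 61.6 ± 8.42 against 29.6 ± 2.07 CPM (1.06 ± 0.07). Socs1, the inhibitor of JAK kinases, stood at 178, 191, 147 and 136 CPM against 147, 155, 128 and 114 CPM. It was higher within each library, with overlapping ranges, by 0.26 ± 0.05 (edgeR adjusted p = 0.00764). The Pias genes and the phosphatase genes Ptpn1, Ptpn2, Ptpn6 and Ptpn11 did not pass.

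Lists of other programs also held called genes, where 4.54% of all genes tested were called. Of 12 T cell receptor-induced genes, 1 (Cd69) was higher and 2 (Nr4a1 and Nr4a3) were lower. Cd69 is also on the list of induced surface genes, where it was counted above among the 8 higher genes. The Nr4a1 and Nr4a3 calls were each lost without library 1, 3 or 4 and after thinning. Under the alternatives 0 to 7 of these genes were lower. Of 12 growth genes, 0 were higher and 4 lower, all by a log2 difference of less than 0.47 in size, and 0 to 4 were lower under the alternatives. The calls of Slc2a1 and Odc1 were lost without library 1, 2 or 3, that of Npm1 without library 1, 3 or 4, and that of Eif4a1 after thinning. Of 14 genes linked to tissue dissociation, the chaperone gene Hspa1a was higher, at 7.06, 23.6, 7.25 and 40.1 CPM against 4.67, 4.69, 5.52 and 27.9 CPM, a call lost without library 1, 2 or 3. Junb was lower, with a log2 difference of -0.12, a call lost without library 4 and after thinning. Among 15 cell death genes, the caspase genes Casp8 (0.52 ± 0.07), Casp1 (0.52 ± 0.06) and Casp4 (0.46 ± 0.06) and the pore-forming Bak1 (0.35 ± 0.06) were higher. The Bak1 call was lost without library 4 (0.31), after thinning (0.29) and with members of at least 4 genes (0.18). The survival gene Bcl2 was lower, at 97.5 ± 18.1 against 120.2 ± 23.1 CPM (-0.30 ± 0.06). Under the alternatives 0 to 1 cell death genes were lower, so this call was not kept in all of them.

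The levels of Irf7, Stat2 and Bst2 rose with the number of rule genes detected, as a description over cells sorted by that number. In these sums, a graded response and a changing mix of cells cannot be told apart. Depth differed as well, with a library 1 median of 3932 UMIs at 0 genes and 4948 UMIs at 3 or 4. Irf7 stood at 59.7, 66.9, 98.9, 210 and 468 CPM in cells with 0, 1, 2, 3 or 4, and 5 to 8 of the 8 genes (means of 4 libraries). Stat2 stood at 22.5, 25.0, 29.1, 52.5 and 128 CPM and Bst2 at 105, 114, 145, 275 and 640 CPM in the same order. Thus cells with 2 genes, outside both classes, already lay above those with none in every library for all 3 genes. Oasl2 was level at first, at 4.12, 3.53 and 4.90 CPM with 0, 1 and 2 genes, 22.5 CPM with 3 or 4 and 86.1 CPM with 5 to 8. Cxcl10 stood at 138, 192 and 193 CPM with 0, 1 and 2 genes, at 259 ± 102 CPM with 3 or 4 and at 1304 ± 428 CPM with 5 to 8. It was thus higher with 1 gene than with none in each library, and highest in the last group. Ifnar1 stayed between 84.3 and 90.3 CPM at each step.

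**Figure D4:**
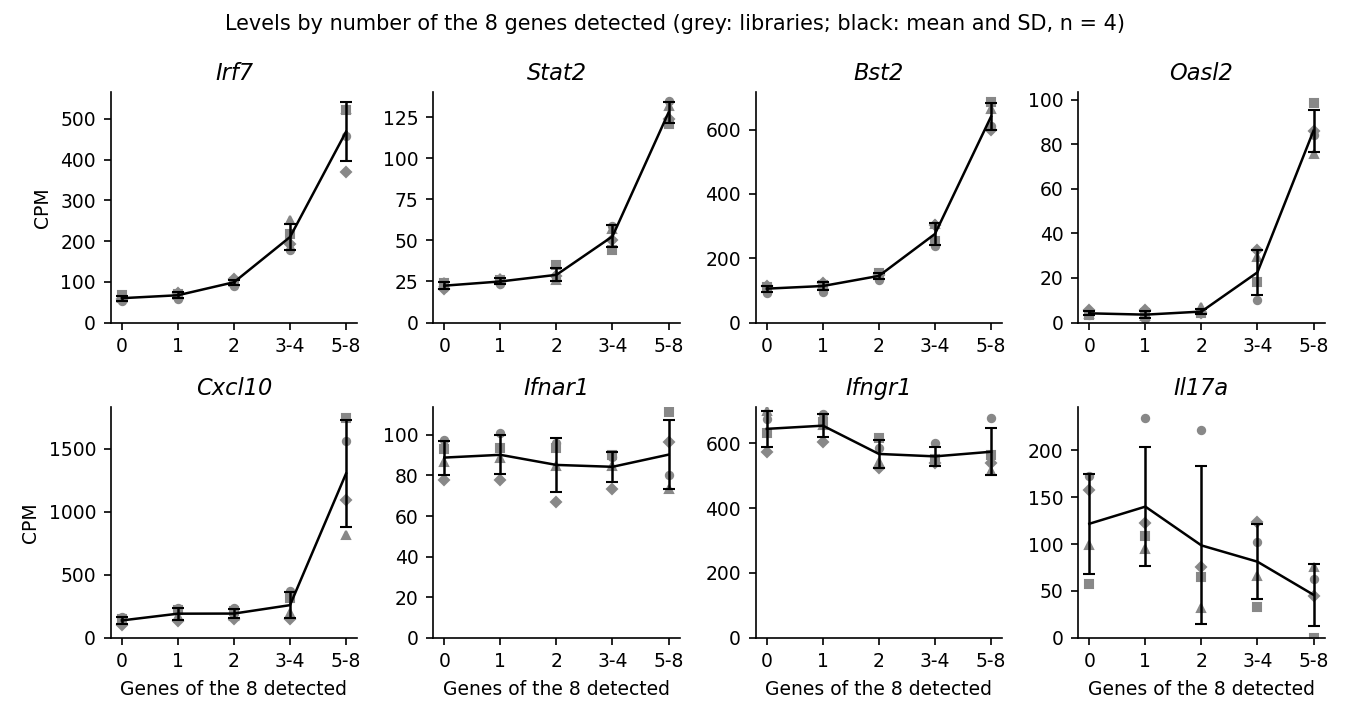
CPM of 8 genes in cells grouped by the number of the 8 rule genes detected, with libraries in grey and the mean and SD (n = 4) in black. The means of Irf7, Stat2 and Bst2 climb from 1 gene onward, Oasl2 climbs from 3 genes on, Cxcl10 climbs most in the last group, and Ifnar1 stays level.

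The sorted cells were checked against the label. The 8 T cell markers summed to 5627 to 5837 CPM in members and 5796 to 6014 CPM in comparison cells, with Cd4 at 371 ± 10.7 against 369.6 ± 13.7 CPM and Trac at 399.6 ± 22.5 against 395 ± 8.05 CPM. The sum was lower in members of each library. Of these markers, 2 were called lower, Cd3e (1795 ± 37.3 against 1894 ± 67.2 CPM) and Cd3g (1381 ± 26.6 against 1460 ± 43.2 CPM). Both calls were lost after thinning and without library 2, 3 or 4, and that of Cd3g also without library 1. Markers of other cell types were found in both classes. Of 8 myeloid markers, 2 (Lyz2 and Csf1r, singled out after their values were seen) were higher. Both calls were lost without library 1, and both differences were below 0 among cells of 2500 to 6000 UMIs. The list summed to 153.6 to 305 CPM in members against 154 to 174 CPM, and library 1 was the highest, with 74.1 CPM of Lyz2. Cells with at least 2 myeloid markers made up 2.68% to 6.51% of members and 1.82% to 2.74% of comparison cells. Cells called as doublets, droplets that may hold a pair of cells, made up 8.04% to 10.1% of members and 3.13% to 3.88% of comparison cells, and they were kept in the class because the rule has no such step. The counts of higher genes were also taken without such cells. With only cells that passed a T cell gate (at least 1 T cell receptor complex gene and fewer than 2 markers of myeloid, B, plasma or epithelial cells), 35 antiviral effectors, 13 sensors and 19 GTPases were higher. With doublets removed the counts were 36, 13 and 19. The 7 markers of plasmacytoid dendritic cells summed to 883 to 1080 CPM in members against 640 to 841 CPM, with Bst2, itself an antiviral effector, called higher and Siglech, Klk1 and Ly6d called lower. With Bst2 left out, cells with at least 2 of these markers made up 17.6% to 24.7% of members and 14.2% to 16.8% of comparison cells. These shares are at each cell's own depth. Ccr9, a gene of this list, had a UMI in 51.9% ± 6.15 of members and 54.8% ± 4.25 of comparison cells after thinning. Siglech and Klk1 had no UMI in members, which allows up to 0.362 CPM. They stood at 3.18 ± 1.496 and 4.74 ± 2.20 CPM in comparison cells.

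Members were examined for marker transcripts of helper lineages, chosen after their values were seen. Of the members, 10.9% ± 1.82 held a UMI of Foxp3, the factor of regulatory T cells, against 7.37% ± 1.38 of comparison cells. After thinning to 2000 UMIs the order turned, to 3.78% ± 0.803 against 4.90% ± 1.09, with 20 members behind the first share. A UMI of Ifng was held by 36.9% ± 0.443 against 31.4% ± 1.79 at full depth, and by 22.1% ± 0.983 against 23.3% ± 1.35 after thinning. Il17a, the cytokine of Th17 cells, had a UMI in 2.72% ± 0.857 against 2.82% ± 1.02, and in 1.24% ± 1.01 against 2.43% ± 0.940 after thinning, when 8 members held one. At that depth Il17a was found in 0.960% of cells with a Foxp3 UMI and in 1.82% of those with an Ifng UMI, so the members' Il17a share is not read as expression above background. Among the lineage genes examined at both depths, Gzma, a granzyme, was the 1 whose share was higher in members of all 4 libraries at each. It was 43.7% ± 6.03 against 35.2% ± 1.11 after thinning. The summed level of Gzma did not differ in that way (1614 ± 305 against 1652 ± 148 CPM), so no order is read from it. Gzmk, another granzyme gene singled out after its values were seen, was called higher, a call lost without library 3 and with no block. After thinning it had a UMI in 20.4% ± 6.14 of members against 14.4% ± 1.98, with a log2 difference of 0.78. As a background, 5.57% of cells with a Foxp3 UMI also had 1 of Ifng at that depth (median 4229 UMIs). With 4 pairs, an exact paired permutation test cannot go below 0.125 (two-sided), and none was run.

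**Figure D5:**
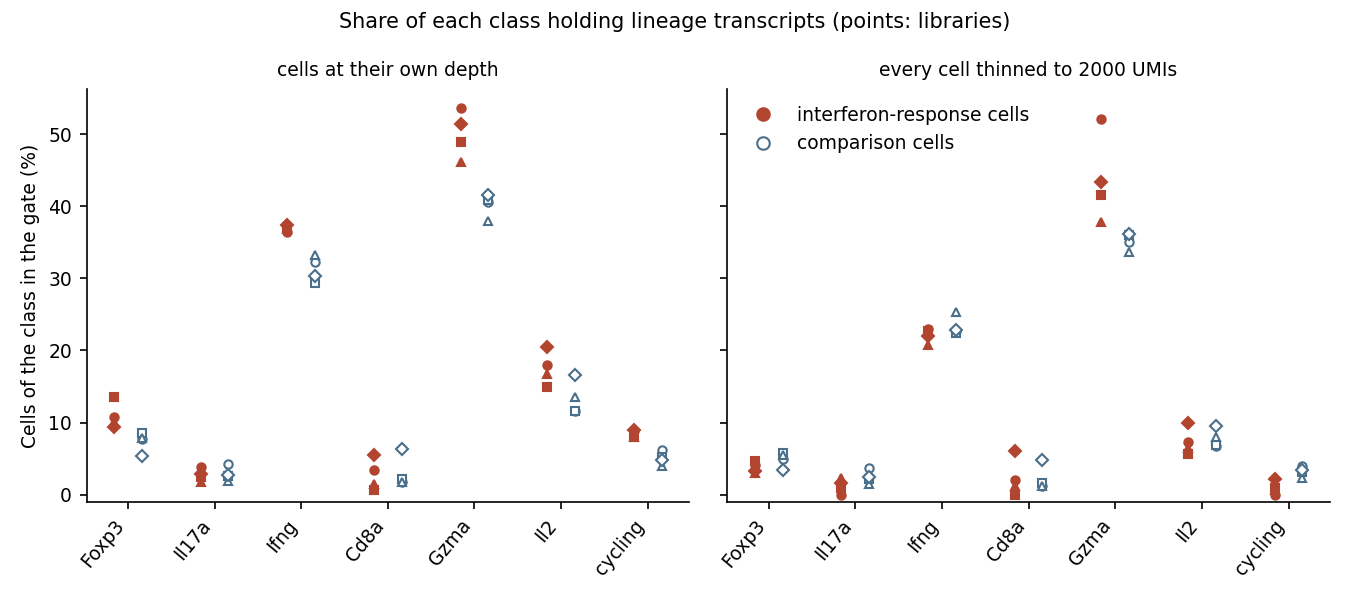
Percent of interferon-response cells (filled) and comparison cells (open) that hold a UMI of the named gene, or at least 2 of 6 cell cycle genes (Mki67, Top2a, Cdk1, Birc5, Ube2c, Stmn1), with 1 point per library, at each cell's own depth (left) and thinned to 2000 UMIs (right). At full depth members have the higher share for Foxp3 and cycling cells in all 4 libraries, and after thinning they have the lower share for both in all 4, with 20 and 6 members in the respective gates.

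Members had the higher level of antiviral transcripts among cells with a UMI of Foxp3, Il17a or Ifng. The antiviral effector list, which holds no gene of the rule, summed to 7386 ± 764 CPM in all members against 3631 ± 128 CPM in all comparison cells. Among cells with a Foxp3 UMI it was 7697 ± 710 CPM in 144 members against 4804 ± 182 CPM in 1329 comparison cells. Among cells with an Il17a UMI at full depth it was 5924 ± 1124 CPM in 36 members against 3111 ± 209 CPM in 505 comparison cells. Among cells with an Ifng UMI it was 6511 ± 793 CPM in 497 members against 3525 ± 126 CPM in 5598 comparison cells. The members' lowest library lay above the highest library of the comparison cells in these 3 gates. Comparison cells with Foxp3 had the highest sum of the 3 comparison groups, a difference that was not tested. Among cells with a Cd8a UMI, library 2 went the other way. There, 2 members stood at 3400 CPM against 3634 CPM in 101 comparison cells.

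Among the lower genes were Ccr7 and Il17a, which mark recirculating and Th17 cells. Ccr7 (chr11:99144196-99155077, minus strand), the receptor that guides T cells into lymph nodes, stood at 8.83, 5.91, 26.8 and 9.37 CPM in members and at 64.6, 27.2, 33.0 and 28.6 CPM in comparison cells. The groups did not overlap, with library 3 the closest, and the log2 difference was -1.57 ± 0.24 (edgeR adjusted p = 0.000545). It was -2.19 without library 3, -2.29 after thinning and -2.41 among cells of 2500 to 6000 UMIs. With no block Ccr7 did not pass (edgeR adjusted p = 0.128). Il17a (chr1:20730905-20734496, plus strand) stood at 96.5, 26.6, 68.6 and 105 CPM in members and at 209, 86.3, 96.5 and 138 CPM in comparison cells. It was lower within each library, with overlapping ranges, by -0.82 ± 0.13 (edgeR adjusted p = 0.00100), by -1.33 after thinning, and did not pass with DESeq2 or with no block. Its relative Il17f, a marker singled out after its values were seen, was lower by -2.22 ± 0.31 and did not pass after thinning. Of the naive and central memory markers, 3 of 8 were called lower, and of the Th17 markers 2 of 7. Cells with at least 2 of 4 recirculating markers made up a mean of 3.65% of members and 3.42% of comparison cells at full depth. This share was higher in members of 3 libraries and lower in 1. After thinning it was 0.423% against 1.82%, lower in all 4 libraries, with 3 members behind the first share. No order is read from these shares.

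Other lower genes had varied roles. Il1rl1 (ST2), the receptor of the alarmin IL-33, stood at 12.6 ± 3.22 against 21.5 ± 7.21 CPM (-0.73 ± 0.14), and did not pass when members needed at least 4 genes. Calca, the gene of calcitonin and CGRP, stood at 20.4 ± 7.28 against 34.8 ± 8.48 CPM (-0.81 ± 0.15). Epas1 (HIF-2α) stood at 27.3 ± 5.52 against 40.0 ± 5.59 CPM (-0.52 ± 0.09), and Ptpn13, a phosphatase gene, at 25.2 ± 2.65 against 37.0 ± 5.54 CPM (-0.55 ± 0.09). The Calca and Ptpn13 calls were lost after thinning, and the Epas1 call when members needed at least 4 genes. Jchain, a plasma cell gene, stood at 7.65, 10.6, 9.48 and 360.5 CPM in members and at 55.2, 366, 68.7 and 379 CPM in comparison cells (-1.67 ± 0.45). Its call was lost without library 1, 2 or 3, and the difference was 0.36 after thinning, so no direction is read from it. Ribosomal protein genes made up 28 of the 182 lower calls (of 80 tested), but 2 of 79 were lower after thinning.

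GAAANNGAA was more common in the promoters of the genes that rose. It stood in 33.0% of the 276 higher genes with a promoter entry, against 8.33% of 132 lower genes, 8.08% of 8433 genes tested and not called, and 9.76% of all 27025 promoters of that length. Among the lists, 10 of 12 GTPase genes, 10 of 16 sensor genes, 18 of 34 antiviral effectors and 5 of 16 antigen presentation genes held it, as did 2 of 6 STAT genes and 1 of 8 interferon regulatory factor genes. TTCNNNGAA, a general STAT motif that can overlap the other one, stood in 14.1% of the higher genes, 8.09% of those not called and 9.55% of all promoters. It was in 6 of 12 GTPase genes. In the promoters printed above, Bst2 held a pair of overlapping GAAANNGAA matches and Ifngr1 held none.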

How the data were processed

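Single-cell RNA was measured in 4 libraries of 1 group. The authors deposited a matrix of whole UMI counts per gene and cell barcode for each library. These were made with Cell Ranger 3.0.2 on mm10, per the submitters' processing notes. All matrices list 31053 gene IDs. The 71 IDs that share a symbol were kept as separate rows in the fit and left out of the gene lists and named genes. Barcodes below 500 detected genes or 1000 UMIs, or above 10% mitochondrial UMIs, were dropped, and doublets were kept. The members and gene lists were chosen with earlier results of these data known.

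UMIs were summed per library and class. The sums were tested with edgeR 4.0.16 in R 4.3.3 (quasi-likelihood test, TMM scaling, filterByExpr, library as a block with 3 residual degrees of freedom), and p-values were adjusted by Benjamini-Hochberg over all genes tested. Both classes come from the same 4 libraries, which is where the pairing comes from. The 8 genes of the rule were left out of the fit. No set test was run. The code was tested on simulated data.

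Named genes were the 15 highest and 10 lowest called genes of the same direction in all 4 libraries with at least 20 CPM in a class, up to 4 genes of each list, and the tested STAT, IRF, receptor, kinase and ISG15 conjugation genes. Alternatives were DESeq2 1.42.0, library-size scaling, no filter, no block, each library left out, thinning of each cell to 2000 UMIs, cells of 2500 to 6000 UMIs, removal of the highest Scrublet scores (scanpy 1.11.5, 0.8% per 1000 barcodes), a T cell gate, no recirculating cells, and other thresholds for members, comparison cells and mitochondrial share. Intervals of shares are Clopper-Pearson (95%). Gene positions are from GENCODE M21 and promoters from RefSeq. Oas1b, Mx2, Pyhin1 and Cxcl11 were not analysed here, and a few other genes are not reported here.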

Additional observations from a re-analysis of the deposited data

Results flagged for a closer look

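Over the 28 quantities examined for a library far from the others, 2 were flagged, and chance flags about 1 in 20 groups of 4. Both were log2 ratios of members to comparison cells within a library, computed with a pseudocount of 1 CPM. Iigp1 had a ratio of 2.42 in library 3, against 2.002 in library 1, 2.05 in library 2 and 2.06 in library 4. Ifi206 had a ratio of 2.31 in library 3, against 1.65, 1.73 and 1.67 in libraries 1, 2 and 4. In both genes the ratio was above 0 in all 4 libraries.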

How the results depend on the processing

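The number of genes higher in members was 199 without library as a block, and 253 to 314 when each library was left out in turn, against 348. The number lower, 182 in the main comparison, was 88 with DESeq2, 473 with no filter on low counts, 7 without the library block, 100 with each cell thinned to 2000 UMIs, and 117 to 141 when each library was left out. Without the block 198 of the 348 higher genes and 7 of the 182 lower genes were still called. The class made up 2.56% of cells after thinning, 2.51% with at least 4 genes and 20.8% with at least 2, and 5.17% to 6.47% when each library was left out. Some log2 differences changed sign. After thinning these were Jchain (0.36), Irf8 (-0.054), Foxp3 (-0.26), Birc5 (-1.06), Ube2c (-1.12), Igha (0.47) and Lyz2 (-1.22). Among cells of 2500 to 6000 UMIs they were Jchain (0.86), Foxp3 (-0.33), Igha (0.40), Lyz2 (-0.61) and Csf1r (-0.25). Within the T cell gate Jchain was 1.01. In the main comparison Foxp3, Birc5 and Ube2c had been called higher and Igha lower. The cause of these changes of sign was not tested. With 4 libraries and 261 to 459 members in each, genes of a few CPM in members rest on few UMIs, and 1166 tested genes that were not called had an unadjusted p under 0.05.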
